A study of Mus musculus with 1 sample.

Results

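The genes of heme biosynthesis were examined in bone marrow (BM) cells sorted for c-kit from Ctrl mice, as the 9 genes *Alas1*, *Alas2*, *Slc25a38*, *Alad*, *Uros*, *Urod*, *Cpox*, *Ppox* and *Fech* among the 54532 Ensembl genes listed. They were taken by name in the order of the pathway. The step between those of *Alad* and *Uros* is not analysed here. The study asked how expression in these cells differs between *Gadd45g*-deficient mice with MPN (myeloproliferative neoplasm) and Ctrl mice. The data are 1 RNA-seq library of the Ctrl group, from wild type C57BL/6 mice, so levels within this library are compared and no difference between genotypes is given. The MPN group is not analysed here. Ages and the number of mice behind the library are not given in the sources used here. Cells were isolated by flow cytometry, and the sample's label adds a gate without lineage markers and Sca-1. The deposited values imply a library total of 15783891 fragments. With 1 library there is no replicate error, and every interval below covers counting error only.

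Heme is an iron porphyrin made in every nucleated cell, and developing red cells make most of the body's supply for hemoglobin. The pathway starts in the mitochondrial matrix, where 5-aminolevulinate synthase joins glycine and succinyl-CoA. It continues in the cytosol and returns to mitochondria, where ferrochelatase inserts iron. Vertebrates have a pair of genes for the first enzyme, the housekeeping *Alas1* and the erythroid *Alas2*. *Alas1* is repressed by heme itself in many tissues. The mRNA of *Alas2* carries an iron-responsive element, a hairpin bound by iron regulatory proteins when iron is scarce.

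The regulatory sequences of the pair are shown because the level difference between them is the main comparison. In the annotated 5′ untranslated regions, a hairpin of the iron-responsive kind was searched for on the sense strand, namely the loop CAGTGN closed by a stem of 5 base pairs with a bulged C before it. It was found in 1 of the 9 genes, *Alas2*, against 31 of 20916 genes with such a region (0.148%). The site lies at chrX:150547462-150547483 on the forward strand (GRCm38), in exon 1 of 11, with 25 bases between the loop and the start codon. Capitals mark the loop.
*Alas2* element: ttcgtcctCAGTGCagggcaac

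RefSeq promoter windows (GRCm38.p6), which run from 250 bases before a start site to 50 after it, were at hand for 8 of the 9 genes. They were searched on both strands for 4 motifs. The GATA motif was read as AGATAA or TGATAA or else AGATAG or TGATAG. The CACCC box was read as CCNCNCCC, the core of NF-E2 as TGAGTCA, and that of NRF1 as GCGCATGCG. Overlapping matches were counted as 1 place, and matches to different motifs could overlap. A GATA motif was present in 3 of the 8 genes (*Alas2*, *Cpox* and *Uros*), against 33.0% of all 27025 genes with a window. The pattern CCNCNCCC, called CACCC box here, was present in 8 of 8, against 51.9%. It also takes in letters without CACCC itself. Only in *Alas1* and *Alas2* did a match contain CACCC on either strand, and the *Alas2* match GGGCGGGG does not. The share of all genes with CACCC itself was not computed. The NRF1 core was present in 1 of 8, *Alas1*, against 1.95%, and the NF-E2 core in 0 of 8, against 5.95%. The pair of synthase genes thus shared the CACCC box and differed in the other letters found, *Alas2* holding a GATA motif and no NRF1 core and *Alas1* the reverse. A match describes letters in these windows and no binding was measured. *Cpox* and *Uros* each held 2 places with a GATA motif. A gene with several windows was counted when any of them matched. In *Uros* both GATA places lay in the window at chr7:133702451-133702750, which held no CACCC box. Its other window, at chr7:133709246-133709545, held a CACCC box and no GATA motif. A choice of stretches is given on the gene's strand with the matched bases in capitals, namely those in which the synthase pair differed, the CACCC box of *Alas2*, and 1 GATA place each of *Cpox* and *Uros*.
*Alas2*, GATA, chrX:150547297-150547374, before the first annotated exon: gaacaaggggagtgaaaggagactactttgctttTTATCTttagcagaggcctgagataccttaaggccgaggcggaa
*Alas2*, CACCC box, chrX:150547375-150547398, in an exon of 1 transcript: GGGGGTGGGGTGGGGtGGGCGGGG
*Alas1*, NRF1 core, chr9:106247906-106247935, reverse strand, in an exon of 1 transcript: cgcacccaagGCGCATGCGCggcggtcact
*Cpox*, GATA, chr16:58670108-58670137, before the annotated gene: ctaaagcgcCTATCTTATCAgtccaagcac
*Uros*, GATA, chr7:133702551-133702580, reverse strand, inside the gene and in exons of 2 transcripts: tctccctcagccTTATCAgtgacagagggc

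All 9 genes reached 1 FPKM (fragments scaled to the length of the gene and the size of the library), as did 22.2% of all genes listed and 46.8% of protein-coding genes. Their median was 92.6 FPKM, against 7.77 FPKM over the 12111 genes at or above 1 FPKM. Of the 9, 7 were in the top 10% of those 12111 genes, which started at 48.0 FPKM and which hold 10% of them by construction, and 3 (*Alas2*, *Fech* and *Urod*) were above 100 FPKM, as were 2.06% of protein-coding genes. The genes outside the top 10% were *Uros* and *Alas1*. The lowest gene inside was *Slc25a38* at 48.9 FPKM, and its counting interval of 46.8 to 51.0 FPKM includes that start. Heme biosynthesis genes together made up 0.468% of the summed FPKM, and *Alas2* alone was 59.2% of their sum.

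**Figure D1:**
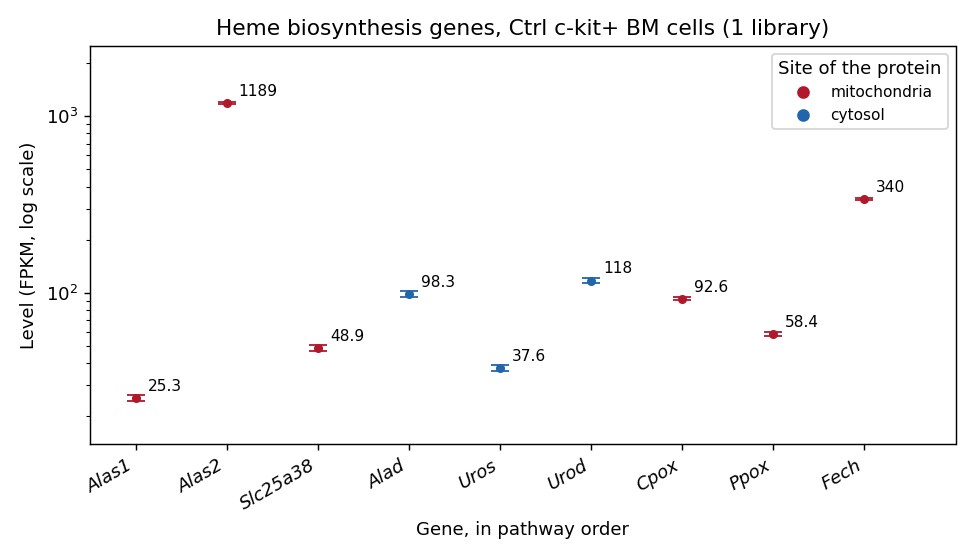
Levels of the 9 heme biosynthesis genes in the Ctrl library, in pathway order, as FPKM on a log axis. Points are the deposited values, colours give the site of the protein, and the bars are 95% Wilson intervals of the recovered fragments, most of them about as small as the points. *Alas2* at 1189 FPKM and *Fech* at 340 FPKM stand above the other 7 genes, which lie between 25.3 and 118 FPKM.

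The first enzyme is encoded by *Alas1* (ENSMUSG00000032786), at chr9:106233455-106248654 on the reverse strand, and *Alas2* (ENSMUSG00000025270), at chrX:150547375-150570638 on the forward strand. The 2467 fragments of *Alas1* gave 25.3 FPKM (95% Wilson interval, 24.3 to 26.3). The 45095 fragments of *Alas2* gave 1189 FPKM (interval, 1178 to 1200). The housekeeping form was the lowest of the 9 genes and the erythroid form the highest. Only 28 of all genes listed were above *Alas2*, while 2374 were above *Alas1*. The level of *Alas2* was 47.0 times that of *Alas1*, with an exact conditional 95% interval of 45.1 to 48.9. The 2 levels do not overlap within counting error, and no replicate check of the difference exists.

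The ratio depends on the length that divides the fragments. The exons of *Alas1* in all its transcripts cover 6174 bases, but its longest coding transcript has 3399, whereas *Alas2* has 2403 and 2037 bases. With fragments taken per kilobase of the longest coding transcript the ratio was 30.5, and with fragments not divided by length it was 18.3. *Alas2* was above *Alas1* under each of these 3 scales. *Alas1* was the lowest of the 9 genes per length, with *Slc25a38* and *Uros* below it in fragments. Exons of *Apex2* on the opposite strand overlap 311 bases of *Alas2*, or 12.9% of its exon bases, and *Apex2* had 1.51 FPKM. *Mir3620*, also on the opposite strand, overlaps 61 bases and is listed at 0. Exons of the antisense gene *4930500F10Rik*, at 0.207 FPKM, overlap 7.53% of those of *Alas1*. Strandedness of the counting is not given in the sources used here, so fragments in the shared bases cannot be told apart.

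The proteins of the pair are related along most of their length. Translated from the longest coding sequence, ALAS1 has 642 residues and ALAS2 587, and 66.5% of 571 aligned residues were identical. Identity was 41.2% of the aligned residues among the first 146 of ALAS2, which include the mitochondrial targeting sequence, and 74.1% over the rest. Each protein has 3 Cys-Pro pairs within its first 146 residues, the core of the heme regulatory motif known from this enzyme. The large difference in mRNA level thus lay between genes for similar enzymes.

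*Slc25a38* (ENSMUSG00000032519), at chr9:120110374-120124504, encodes the carrier of the inner mitochondrial membrane that is known to bring in glycine for the first step in erythroid cells. Its level was 48.9 FPKM from 2119 fragments (interval, 46.8 to 51.0). This was 1.93 times *Alas1* (interval, 1.82 to 2.05), though 0.859 times in fragments not divided by length, and well below *Alas2*, which was 24.3 times higher (interval, 23.3 to 25.4). Per length, the carrier thus lay between the housekeeping and the erythroid synthase. So did every other gene analysed, since the synthase genes were the lowest and the highest.

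The cytosolic steps differed among themselves. *Alad* (ENSMUSG00000028393), at chr4:62509169-62519918, encodes the enzyme that condenses a pair of aminolevulinate molecules to porphobilinogen, and had 98.3 FPKM from 2903 fragments (interval, 94.8 to 102). *Uros* (ENSMUSG00000030979), at chr7:133686243-133710072, encodes the enzyme that closes the tetrapyrrole ring to uroporphyrinogen III. It had 37.6 FPKM from 2124 fragments (interval, 36.1 to 39.3), in deposited FPKM the lowest of the genes analysed apart from *Alas1*. *Urod* (ENSMUSG00000028684), at chr4:116989965-116994413, encodes the decarboxylase that makes coproporphyrinogen III, and had 118 FPKM from 4810 fragments (interval, 114 to 121). *Urod* was 3.13 times *Uros* (interval, 2.97 to 3.29), and *Alad* was 2.61 times *Uros* (interval, 2.47 to 2.76). *Uros* stayed the lowest of the 3 under each of the other length scales, where *Urod* was 2.68 times *Uros* per kilobase of the longest coding transcript and 2.26 times in fragments, and *Alad* 1.93 and 1.37 times.

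The late steps take place in mitochondria. *Cpox* (ENSMUSG00000022742), at chr16:58670292-58717636, encodes the oxidase that makes protoporphyrinogen IX, and had 92.6 FPKM from 9733 fragments (interval, 90.8 to 94.4). *Ppox* (ENSMUSG00000062729), at chr1:171275990-171281186, encodes the oxidase that makes protoporphyrin IX. It had 58.4 FPKM from 4165 fragments (interval, 56.7 to 60.2), so that *Cpox* was 1.58 times *Ppox* (interval, 1.53 to 1.64). Exons of *B4galt3* on the opposite strand, at 7.45 FPKM, overlap 17.5% of the exon bases of *Ppox*, and those of *Gpr15*, at 1.04 FPKM, 3.06% of those of *Cpox*.

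*Fech* (ENSMUSG00000024588), on the reverse strand of chromosome 18, encodes ferrochelatase, which inserts iron into protoporphyrin IX. At 340 FPKM it was the highest gene after *Alas2*, with 116 of all genes above it, and it was 5.82 times *Ppox*, the step before it (interval, 5.62 to 6.02). That ratio was 2.59 per kilobase of the coding transcript used and 3.74 in fragments, and both depend on the length taken for *Fech*. Its FPKM is not a whole number of fragments at the 13838 exon bases that GENCODE gives it. It is whole at 2901 bases, which gives 15569 fragments and an interval of 335 to 345 FPKM, and at multiples of that length up to 11604 bases, which give more fragments and narrower intervals. The 15569 fragments are used for *Fech* throughout. With 31138, 46707 or 62276 fragments, at the longer lengths, *Fech* was 7.48, 11.2 or 15.0 times *Ppox* in fragments, and at the last pair it was above the 45095 fragments of *Alas2*. Its coding transcript of 2630 bases was used for the other length scale, as the longest that is not over 2901 bases. At its longest coding transcript, of 6571 bases, the 15569 fragments gave a level of 150, which was 1.04 times *Ppox*. There, 31138, 46707 or 62276 fragments gave 2.07, 3.11 or 4.14 times *Ppox*, and 31138 fragments at 2630 bases gave 5.18 times. The genes of the first step in its erythroid form and of the last step were thus the highest in deposited FPKM, with *Alas2* 3.50 times *Fech* (interval, 3.43 to 3.56).

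Ordered by level, the genes ran *Alas2*, *Fech*, *Urod*, *Alad*, *Cpox*, *Ppox*, *Slc25a38*, *Uros* and *Alas1*. In none of the 8 neighbouring pairs did the interval of the ratio include 1. The closest were *Alad* and *Cpox*, with a ratio of 1.06 (interval, 1.02 to 1.11), *Ppox* and *Slc25a38*, with 1.20 (interval, 1.13 to 1.26), and *Urod* and *Alad*, with 1.20 (interval, 1.14 to 1.25). Under the other length scales *Ppox* was 1.93 and 1.97 times *Slc25a38*. These intervals hold for the deposited FPKM only, and the order of the middle genes changed with the length used. In fragments *Cpox* passed both *Alad* and *Urod*, whose ratios to *Cpox* became 0.298 and 0.494, and *Ppox* passed *Alad*. Per kilobase of the longest coding transcript *Cpox* passed *Alad*, whose ratio to *Cpox* became 0.741, and the ratio of *Slc25a38* to *Uros* became 0.981. *Alas2* stayed the highest and *Alas1*, at 46.0, the lowest. *Fech*, at 375, stayed next to *Alas2*, followed by *Urod* at 205 and *Cpox* at 199. At 6571 bases *Fech* fell behind both of these, to 150, with 15569 fragments. With 31138, 46707 or 62276 fragments *Fech* was 300, 450 or 600 at 6571 bases and stayed next to *Alas2*. *Ppox* changed most, 2.48-fold from 58.4 to 145, since its exons cover 4515 bases and its longest coding transcript 1821.

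**Figure D2:**
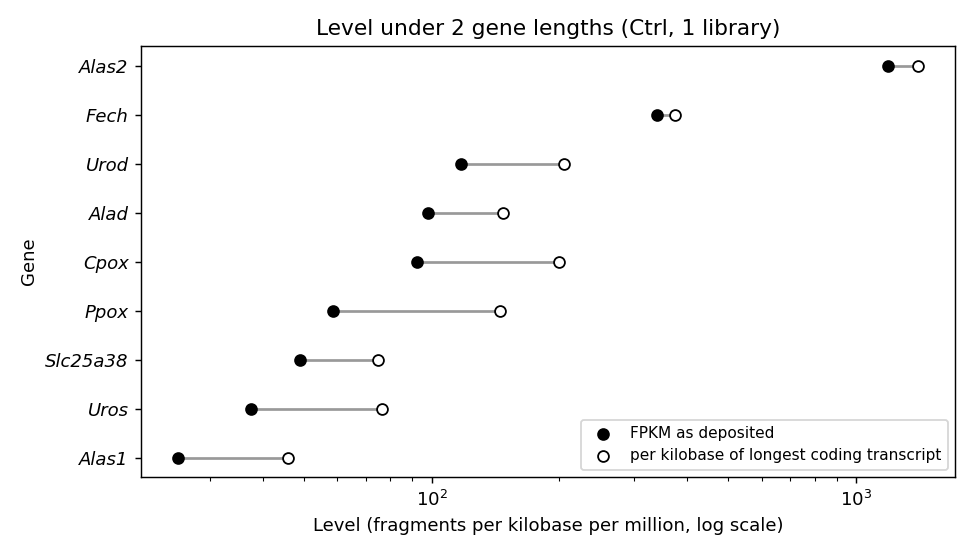
Level of each gene under 2 lengths, on a log axis. Filled points are the deposited FPKM, and open points are the same levels per kilobase of the longest coding transcript. The open point of *Fech* uses 2630 bases. *Alas2* is first and *Alas1* last under both, while *Cpox* rises from 92.6 to 199 and *Ppox* from 58.4 to 145.

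By site of the protein, the median was 75.5 FPKM for the 6 mitochondrial and 98.3 FPKM for the 3 cytosolic genes, a ratio of 0.768. Without *Alas2* the mitochondrial median was 58.4 FPKM. The direction turned with the length, the ratio being 1.17 per kilobase of the longest coding transcript and 2.39 for fragments not divided by length. With *Fech* at 6571 bases the ratio was 1.0001 for 15569 fragments and 1.17 for the larger numbers of fragments. The levels of the cytosolic genes all lay within the range of the mitochondrial genes. This follows from *Alas1* and *Alas2* alone, the lowest and the highest gene, which are both mitochondrial.

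**Figure D3:**
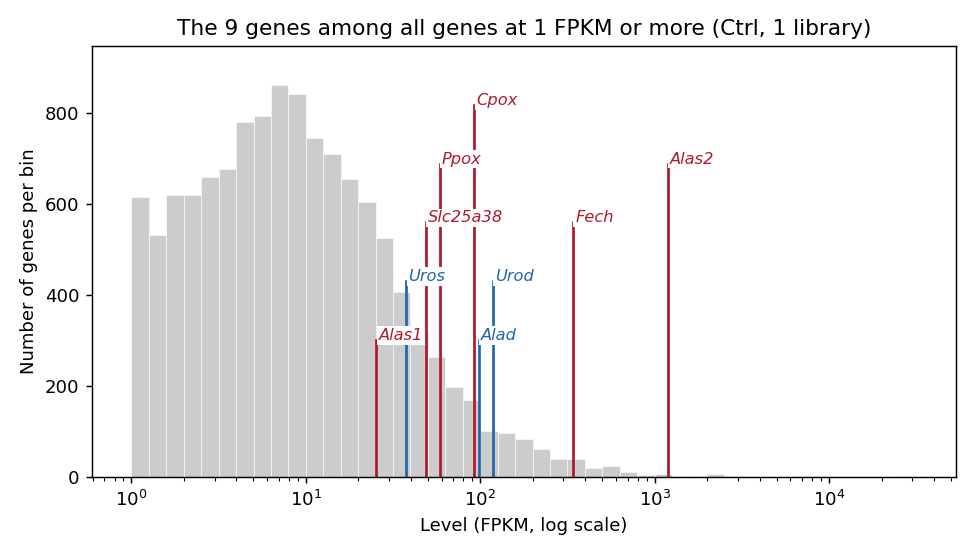
The 9 genes among all genes at 1 FPKM or more in the Ctrl library. Grey bars count genes per bin of FPKM on a log axis, and coloured lines mark the 9 genes, red for mitochondrial and blue for cytosolic proteins, with heights chosen for legibility only. The 9 genes lie to the right of the median of 7.77 FPKM, from *Alas1* at 25.3 to *Alas2* at 1189 FPKM.

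Genes that work with the pathway were read from 3 lists, and these and the cell type markers are given as deposited FPKM only, without the other length scales. Of 14 genes for substrate supply and transport, 13 reached 1 FPKM, with a median of 26.9 FPKM. *Slc25a37*, the mitoferrin that carries iron into erythroid mitochondria, had 313 FPKM (interval, 310 to 317). *Tmem14c*, which carries porphyrin across the inner mitochondrial membrane, had 220 FPKM (interval, 212 to 227), and *Abcb10*, known to stabilise mitoferrin, had 84.8 FPKM. The lowest was *Abcb6*, a porphyrin transporter, with 0.668 FPKM from 56 fragments. *Abcb6* lay below all 9 genes of the pathway.

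Of 11 regulators, 10 reached 1 FPKM, with a median of 18.7 FPKM. *Klf1* and *Gata1*, transcription factors of the red cell lineage, had 141 and 50.3 FPKM. *Nfe2*, which encodes the larger subunit of NF-E2, had 107 FPKM. *Clpx*, a mitochondrial unfoldase known to activate ALAS2, had 11.5 FPKM, and *Ireb2*, which encodes iron regulatory protein 2, had 7.02 FPKM. *Ppargc1a*, a coactivator known to raise *Alas1* in fasted liver, had 0.0192 FPKM from 2 fragments (interval, 0.00527 to 0.0701). *Ppargc1a* was the lowest gene of the 3 lists.

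Of 11 genes for heme export, breakdown and other use, 10 reached 1 FPKM, with a median of 11.6 FPKM. *Hmox1*, the inducible heme oxygenase, had 64.8 FPKM (interval, 61.9 to 67.9). *Blvrb*, a reductase known from red cells, had 136 FPKM, and *Slc48a1*, which moves heme out of lysosomes, had 78.1 FPKM. *Cox10*, which makes heme O for cytochrome oxidase, had 4.17 FPKM, and *Flvcr2*, a relative of the heme exporter gene *Flvcr1*, had 0.0542 FPKM from 3 fragments (interval, 0.0184 to 0.159). Of the 36 genes of the 3 lists, 33 reached 1 FPKM, against 46.8% of protein-coding genes. The median of the 36 genes, 18.6 FPKM, was below the level of the lowest heme biosynthesis gene, *Alas1*. The levels still overlapped, since each list held genes above *Alas1*, up to *Slc25a37* at 313 FPKM, *Klf1* at 141 FPKM and *Blvrb* at 136 FPKM.

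**Figure D4:**
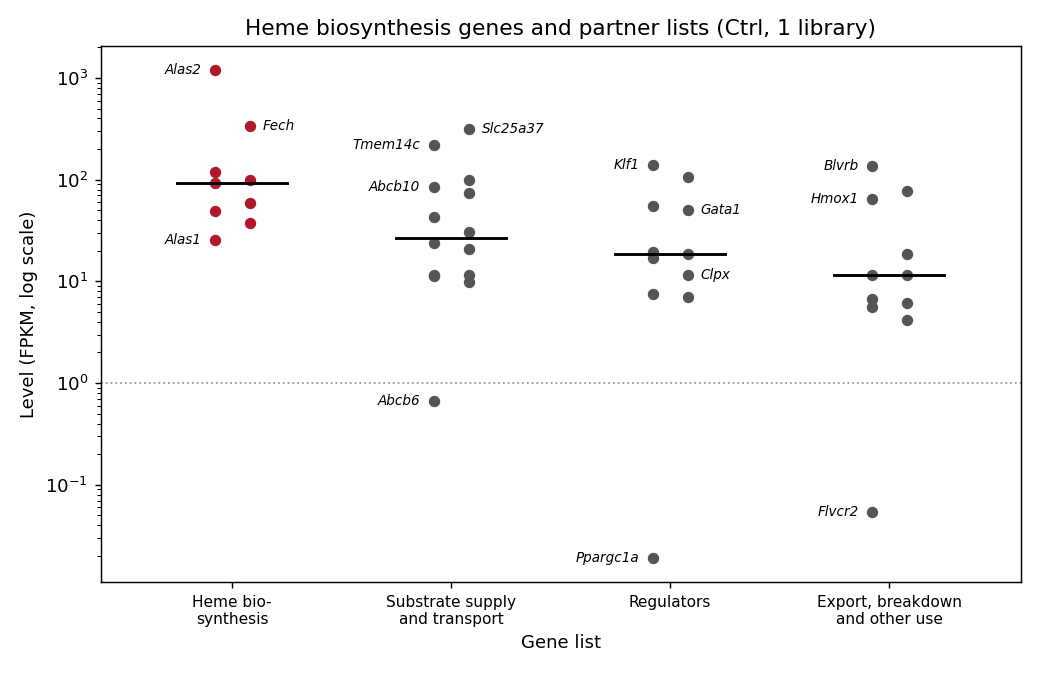
Heme biosynthesis genes and the 3 lists of partner genes in the Ctrl library, 1 point per gene, as FPKM on a log axis. Black bars are list medians, from 92.6 FPKM for heme biosynthesis to 11.6 FPKM for export, breakdown and other use, and the dotted line is 1 FPKM.

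The cell type was read from marker lists, since *Alas2* is a gene of red cell precursors. The progenitor genes *Kit*, *Cd34* and *Myb* had 7.17, 5.22 and 16.5 FPKM, on that scale each below the lowest heme biosynthesis gene. The 9 erythroid genes analysed had a median of 1037 FPKM, the smallest being *Epor*, the erythropoietin receptor gene, at 49.9 FPKM, and together they held 11.5% of the summed FPKM. *Slc4a1*, the band 3 gene of the red cell membrane, had 1037 FPKM. *Tfrc*, the transferrin receptor gene, had 150 FPKM. The most abundant was *Hba-a1* at 25466 FPKM, whose reads may be shared with the near-identical *Hba-a2*.

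Markers of other lineages were present as well. The median of 7 genes of mature neutrophils was 3872 FPKM, and they held 12.4% of the summed FPKM, led by *S100a9* at 26677 FPKM. The 4 granulocyte-macrophage progenitor (GMP) genes had a median of 407 FPKM, led by *Elane* at 781 FPKM. Medians were 47.4 FPKM for 5 macrophage genes, 47.2 FPKM for 5 B cell genes, 15.0 FPKM for 4 megakaryocyte genes and 6.79 FPKM for 4 T cell genes. Summed levels of these lists were 225, 375, 68.7 and 27.3 FPKM, and *Gp1bb* was the only marker listed at 0. The label names a gate without lineage markers, and all listed genes of red cells, neutrophils and B cells were above *Kit* in deposited FPKM. In 1 bulk library, the share of cells of a type and the RNA per cell cannot be told apart, so which cells the heme biosynthesis fragments came from was not tested.

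**Figure D5:**
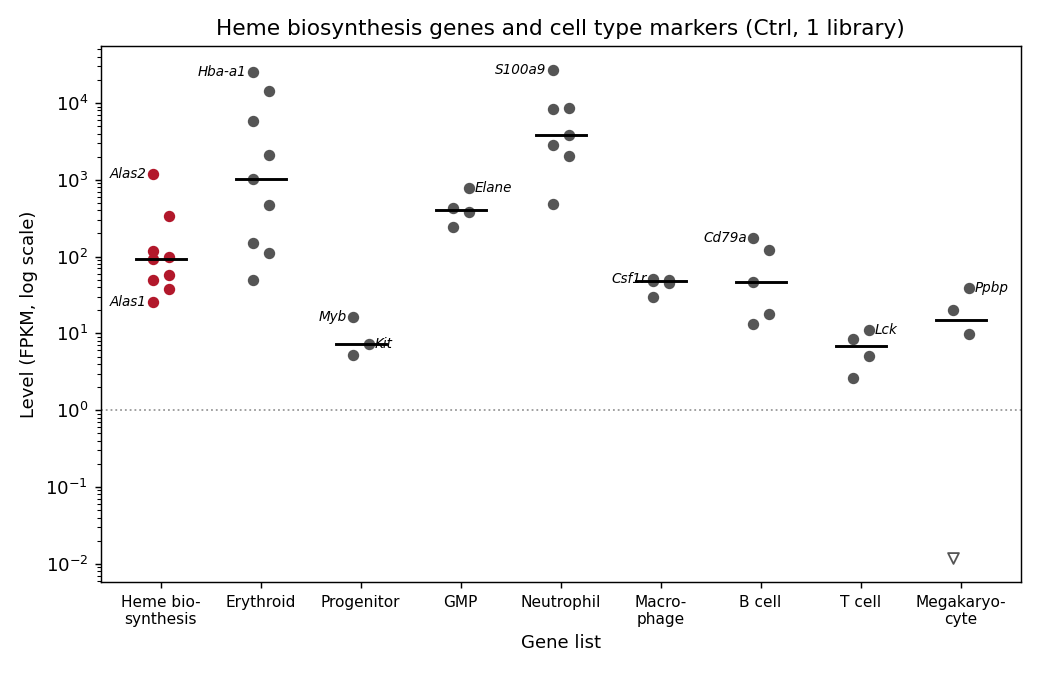
Heme biosynthesis genes and markers of 8 cell types in the Ctrl library, 1 point per gene, as FPKM on a log axis. Black bars are list medians, the dotted line is 1 FPKM, and the open triangle at the bottom stands for *Gp1bb*, listed at 0. *Alas2* at 1189 FPKM lies among the erythroid genes, and all 9 heme biosynthesis genes lie above the 3 progenitor genes.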

How the data were processed

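Gene levels of the Ctrl library were deposited by the authors in FPKM, from Illumina sequencing. The submitters' processing notes name HISAT2 2.0.5, featureCounts 1.5.0-p3 and mm10. The annotation and strandedness are not given in the sources used here. Symbols, exon lengths and coordinates came from GENCODE M21 (GRCm38), which holds 54495 of the 54532 identifiers. FPKM times exon length was a whole multiple of a common step, within 0.01, for 96.4% of genes above 0. The step implies a total of 15783891 fragments. The multiples, read as fragments, summed to 15899824 over the genes with a whole multiple and 17113323 over all genes. Both sums exceed the total, and the cause was not tested. The multiples and the implied total were used for 95% Wilson intervals, and the multiples for exact conditional (Clopper-Pearson) intervals of ratios. The recovery step was tested on simulated data with known fragments, which does not test the lengths used for the deposited values. The length of 2901 bases for *Fech*, the shortest from 500 bases upward that gave a whole number within 1e-05, was chosen after seeing the data. For the other length scale, the longest coding transcript no longer than the length behind the value was used, which set aside a longer one of *Fech*.

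The members and lists were chosen with earlier results of these data known. The rule named all 9 genes, the 2 highest and 2 lowest of each partner list and any overlapping genes, with 7 partners given by name, and 1 gene that it names is not reported here. Markers were fixed as lists, and those named singly were chosen after their values were seen. In addition, 1 gene of the lists had no match and is not analysed here. No test was made, since there is 1 library. Proteins were aligned globally with BLOSUM62. Alternatives were other lengths, detection minimums, totals and backgrounds. Computations used scipy 1.17.1, biopython 1.88, pandas 2.3.3, numpy 2.4.6 and matplotlib 3.10.9 under Python 3.11.15.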

Additional observations from a re-analysis of the deposited data

How the results depend on the processing

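No paired analysis was possible because there was only a single Ctrl library. The ratio of *Alas2* to *Alas1*, 47.0 as deposited, was 18.3 for fragments not divided by length, since the exons of *Alas1* are longer. Per kilobase of the longest coding transcript it was 30.5. Exon bases were 1.82 times that transcript for *Alas1* and 1.18 times for *Alas2*. The median of the 9 genes, 92.6 FPKM, was 147 per kilobase of the longest coding transcript, 4165 in fragments, 125 FPKM without the 10 most abundant genes in the total and 96.4 FPKM without mitochondrially encoded genes. The last pair scales all genes by common factors of 1.35 and 1.04. The ratio of mitochondrial to cytosolic medians, 0.768, was 1.17 and 2.39 under the other length scales, where its direction turned. With *Fech* at its longest coding transcript, an alternative chosen after seeing the data, it was 1.0001 for 15569 fragments. For the larger numbers of fragments it was 1.17. All 9 genes reached minimums of 0.1 FPKM, 10 FPKM and 10 fragments. In the top 10% were 7 genes, 8 against all genes above 0 and 6 against protein-coding genes. The last count leaves out *Slc25a38*, whose 48.9 FPKM is below the start of 49.1 FPKM there. Counting intervals exclude a ratio of 1 for all neighbours in the order of deposited FPKM only. Between *Slc25a38* and *Uros* the ratio was 0.981 and 0.998 under the other length scales, for which no interval was computed. The spread between mice is unknown.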
